A study of Mus musculus with 8 samples.

Results

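The 10 enzymes that carry glucose 6-phosphate down to lactate in skeletal muscle were followed through white quadriceps RNA: Gpi1, Pfkm, Aldoa, Tpi1, Gapdh, Pgk1, Pgam2, Eno3, Pkm and Ldha. They were picked out by gene name, by a rule that uses no measured value, although the set was drawn up with earlier results of these data known. All 10 were found among the 54091 genes of the expression table. The muscle came from male, chow-fed mice aged 11 to 14 weeks, and it was taken in the morning. In 4 Acot2 mKO mice, Acot2 was deleted in muscle by a CKM Cre transgene, that is, a recombinase under the muscle creatine kinase promoter. The 4 control mice were labelled Loxp/Loxp, with no recombinase named, so the groups differ in the Cre transgene as well as in Acot2, and the effects of these cannot be told apart. The strain and the floxed exons are not given in the sources used here. Acot2 encodes a mitochondrial acyl-CoA thioesterase, and the series asks how it bears on fatty acid oxidation in glycolytic muscle. Each library came from a mouse with its own number, so the tests weigh the difference against the spread between animals.

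Glycolysis splits a six-carbon sugar into a pair of three-carbon pieces and harvests ATP and NADH from them, and lactate dehydrogenase returns NADH to NAD so that the pathway can run without oxygen. Fast white fibres depend on it for bursts of contraction. Several steps have a muscle isozyme, made from its own gene, beside one used in most other tissues, as with Pfkm, Pgam2 and Eno3. Gapdh, Tpi1, Gpi1 and Pgk1 serve nearly all cell types.

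The libraries held 30415431 to 48834283 reads assigned to genes. Acot2 was at 43.8, 42.8, 53.7 and 48.9 normalized reads in Acot2 mKO 1 to 4, against 213, 149, 251 and 240 in control 1 to 4, a log2 difference of -2.13 ± 0.18 (SE; limma, Benjamini-Hochberg adjusted p = 0.000962). A normalized read is a read count divided by a size factor of its library. Fast fibre genes identified the tissue: Myh4, the myosin of fast glycolytic fibres, averaged 2.85e+06 normalized reads in Acot2 mKO and 3.09e+06 in control muscle. The pieces differed in their other contents. The summed level of 8 slow fibre markers reached 6979 and 17978 normalized reads in Acot2 mKO 3 and 4, against 1642 to 2566 in the other 6 libraries. The sum of 7 adipocyte markers reached 20355 and 9226 in control 2 and 3, with 2487 to 3994 in the other 6. In such bulk tissue, fewer cells of a type and less RNA per cell cannot be told apart. The labels name no batch.

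The promoters of 4 of the enzymes are shown here because their genes differ in how widely they are used: Pgam2 and Eno3 are muscle isozymes, while Ldha and Pgk1 are expressed broadly. Each run is the 250 bases before a RefSeq transcription start (GRCm38.p6), written on the gene's strand. Capitals mark matches, on either strand, to the TATA box (TATAAA), the GC box (GGGCGG), the core of the hypoxia response element (ACGTG), the core of the MEF3 box (TCAGGTT) or the MEF2 box. The E-box (CANNTG) was counted but left in lower case.
Pgam2, chr11:5803797-5804046, minus strand: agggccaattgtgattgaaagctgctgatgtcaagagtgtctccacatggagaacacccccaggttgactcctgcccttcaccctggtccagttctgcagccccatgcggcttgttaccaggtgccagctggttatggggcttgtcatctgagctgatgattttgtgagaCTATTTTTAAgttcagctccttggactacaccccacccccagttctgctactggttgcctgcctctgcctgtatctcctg
Eno3, chr11:70656926-70657175, plus strand: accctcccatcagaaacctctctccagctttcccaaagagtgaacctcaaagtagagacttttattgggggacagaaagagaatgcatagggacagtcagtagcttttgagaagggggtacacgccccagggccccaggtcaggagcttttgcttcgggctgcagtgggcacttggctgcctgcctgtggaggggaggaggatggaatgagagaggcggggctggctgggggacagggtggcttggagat
Ldha, chr7:46845554-46845803, plus strand: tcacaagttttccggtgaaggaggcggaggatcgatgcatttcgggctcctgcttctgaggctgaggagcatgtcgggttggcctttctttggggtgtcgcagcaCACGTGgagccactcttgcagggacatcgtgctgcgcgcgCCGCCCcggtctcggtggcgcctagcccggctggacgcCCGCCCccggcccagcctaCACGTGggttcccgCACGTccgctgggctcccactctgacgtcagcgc
Pgk1, chrX:106186850-106187099, plus strand: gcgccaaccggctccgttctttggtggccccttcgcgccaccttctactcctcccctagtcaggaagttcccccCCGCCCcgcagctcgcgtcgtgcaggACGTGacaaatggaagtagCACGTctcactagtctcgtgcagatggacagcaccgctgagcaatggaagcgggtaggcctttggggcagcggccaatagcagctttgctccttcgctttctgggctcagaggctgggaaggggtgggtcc

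In the Pgam2 promoter the capitals mark the MEF2 box, which begins 80 bases before the start, and 5 E-boxes lie in the same window. The Eno3 window held 1 E-box and none of the other motifs. Ldha has 2 RefSeq starts, and the window shown, before the first, held 5 matches to ACGTG and 2 to GGGCGG, while the window before the other held 0 of both. In the window shown, 4 of the ACGTG matches fall in 2 palindromes, cacgtg, which are read on both strands and are E-boxes as well. The Pgk1 window held 2 matches to ACGTG and 1 to GGGCGG. The 10 enzymes have 17 RefSeq starts, some with overlapping windows. ACGTG was found in 7 of the 17 windows (5 genes), GGGCGG in 7 (6 genes), the E-box in 14 (9 genes) and the MEF2 box in 1, while TATAAA and TCAGGTT were in 0. Of 32851 mouse promoter windows of the same length, 16.6% held ACGTG, 32.7% GGGCGG, 66.2% the E-box, 2.92% the MEF2 box, 12.4% TATAAA and 3.49% TCAGGTT. The GC content of the windows shown was 53.2% for Pgam2, 57.2% for Eno3, 67.2% for Ldha and 62.8% for Pgk1. Over the 17 windows it ran from 36.4 to 67.6%, beside a median of 52.4% over all promoters. The shares were not matched for GC content. These matches describe the letters only.

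No difference between Acot2 mKO and control muscle was detected for any of the 10 enzymes. All passed the filter on low values, and 0 were called by limma at an adjusted p of 0.05, where 0.0147% of the 13638 tested genes (2 genes, Acot2 and Kbtbd12, the second named after its value was seen) were called. In either direction alone the share was 0.00733% (1 gene higher, 1 lower in Acot2 mKO). At an unadjusted p of 0.05 there were also 0 of 10 enzymes, against 2.91% of tested genes. The log2 differences ran from -0.045 for Gapdh to 0.042 for Tpi1, with 5 above and 5 below 0, and the lowest unadjusted limma p was 0.510, for Gpi1. The median of the 10 was -0.0093, beside 0.0049 for all tested genes. The 95% confidence intervals of the 10 differences lay within 0.820-fold and 1.25-fold of control, which is the precision these 8 animals gave. In all 10 the ranges of the groups overlapped, and 1.92% of tested genes had groups that did not overlap. With shares of all genes this low, the counts for 10 enzymes do not set them apart.

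**Figure D1:**
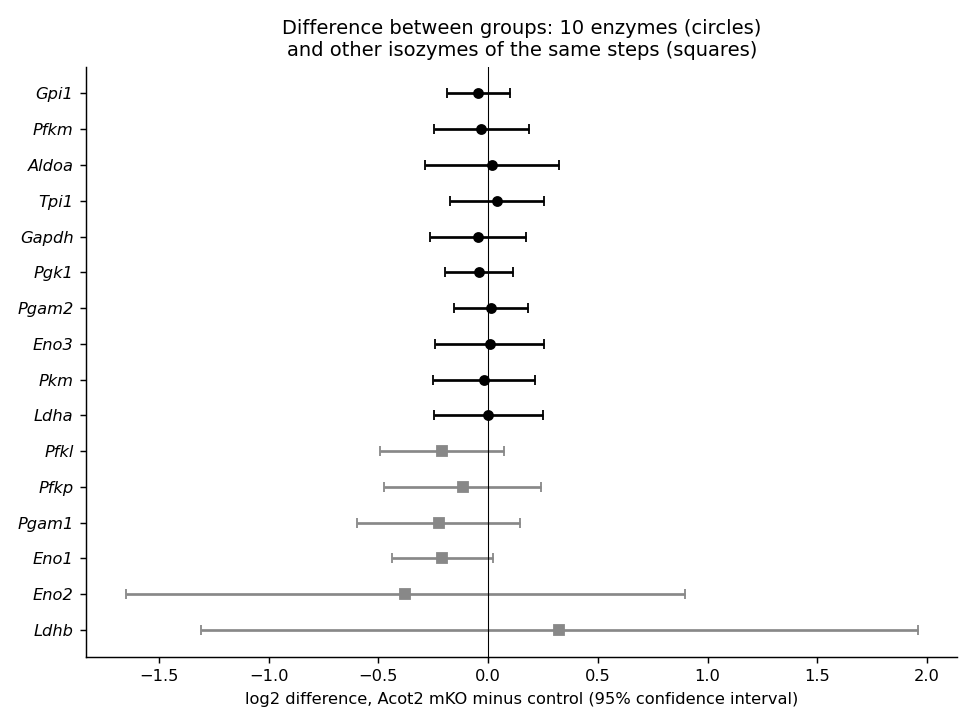
The log2 difference, Acot2 mKO minus control, of each of the 10 enzymes (black circles) and of 6 other isozymes of the same steps that passed the filter (grey squares), with its 95% confidence interval from limma (n = 4 libraries each). All 16 intervals cross 0, and those of the enzymes lie between -0.29 and 0.32.

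The preparatory steps use ATP. Gpi1, phosphoglucose isomerase, turns glucose 6-phosphate into fructose 6-phosphate (gene at chr7:34201330-34230336, GRCm38). It had 20054, 20392, 21548 and 18674 normalized reads in Acot2 mKO 1 to 4, against 21463, 21660, 20327 and 19717 in control 1 to 4. Its groups overlapped, with a difference of -0.045 ± 0.066 (Acot2 mKO minus control, log2, SE). It varied least of the 10 within groups, by an SD of 0.076 on the log2 scale. Pfkm, the muscle phosphofructokinase, commits the sugar to glycolysis (chr15:98092589-98132451). It had 97898, 104004, 104982 and 90422 normalized reads in Acot2 mKO 1 to 4, against 115352, 94911, 102587 and 93624 in control 1 to 4. Control 1 was the highest and Acot2 mKO 4 the lowest, and the difference was -0.030 ± 0.098.

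Aldoa, aldolase A, splits fructose 1,6-bisphosphate into a pair of triose phosphates (chr7:126795234-126800751). It was the most abundant of the 10 transcripts and the 11th of all genes by reads. Its level was 439072, 443784, 442892 and 372969 normalized reads in Acot2 mKO 1 to 4, against 474154, 418131, 399849 and 385667 in control 1 to 4. In the Acot2 mKO group 3 libraries lay close together and Acot2 mKO 4 stood below them, also below every control, while control 1 was above all others. The difference was 0.019 ± 0.14 on the log2 scale. Tpi1, triose phosphate isomerase, interconverts the trioses (chr6:124810586-124814296) and ranged from 48208 to 61773 normalized reads in Acot2 mKO and from 46737 to 58307 in control muscle. Its difference was 0.042 ± 0.098.

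The next steps make NADH and ATP. Gapdh, glyceraldehyde-3-phosphate dehydrogenase, reduces NAD as it adds a phosphate (chr6:125161715-125166467). It ranged from 67837 to 82980 normalized reads in Acot2 mKO and from 72424 to 87493 in control muscle, a difference of -0.045 ± 0.099. Over 8 libraries its highest value was 1.29-fold its lowest, and over the 10 enzymes this ratio ran from 1.16-fold for Pgam2 and Gpi1 to 1.35-fold for Ldha. Pgk1, phosphoglycerate kinase, makes the first ATP of the payoff steps (chrX:106187100-106203699). It had 10580, 10414, 11279 and 9492 normalized reads in Acot2 mKO 1 to 4, against 11204, 10252, 11433 and 10078 in control 1 to 4. The lowest value was again in Acot2 mKO 4 and the groups overlapped, with a difference of -0.042 ± 0.070.

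Pgam2, the muscle phosphoglycerate mutase, moves the phosphate to the neighbouring carbon (chr11:5801640-5803733). It had 38548, 34855, 39081 and 34256 normalized reads in Acot2 mKO 1 to 4, against 39670, 36438, 34242 and 35061 in control 1 to 4. Here the lowest library was control 3, by a small margin, and the difference was 0.013 ± 0.077. Eno3, beta-enolase, makes phosphoenolpyruvate (chr11:70657202-70662513). It had 146282, 147923, 163054 and 126720 normalized reads in Acot2 mKO 1 to 4, against 164519, 145554, 140333 and 130346 in control 1 to 4. The highest and the lowest values of each group spanned nearly the same range, and the difference was 0.0074 ± 0.11.

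Pkm, pyruvate kinase, makes pyruvate and ATP (chr9:59656368-59679375). It ranged from 80683 to 99567 normalized reads in Acot2 mKO and from 83935 to 108263 in control muscle, a difference of -0.020 ± 0.11. The values are per gene, so its M1 and M2 splice forms were not separated. Ldha, the lactate dehydrogenase subunit of fast muscle, turns pyruvate into lactate (chr7:46841475-46855627). It had 74311, 71710, 82493 and 61163 normalized reads in Acot2 mKO 1 to 4, against 82105, 75725, 67214 and 64080 in control 1 to 4. Its difference, 0.00145 ± 0.11, was the smallest of the 10, and it varied most within groups, by an SD of 0.17 on the log2 scale.

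**Figure D2:**
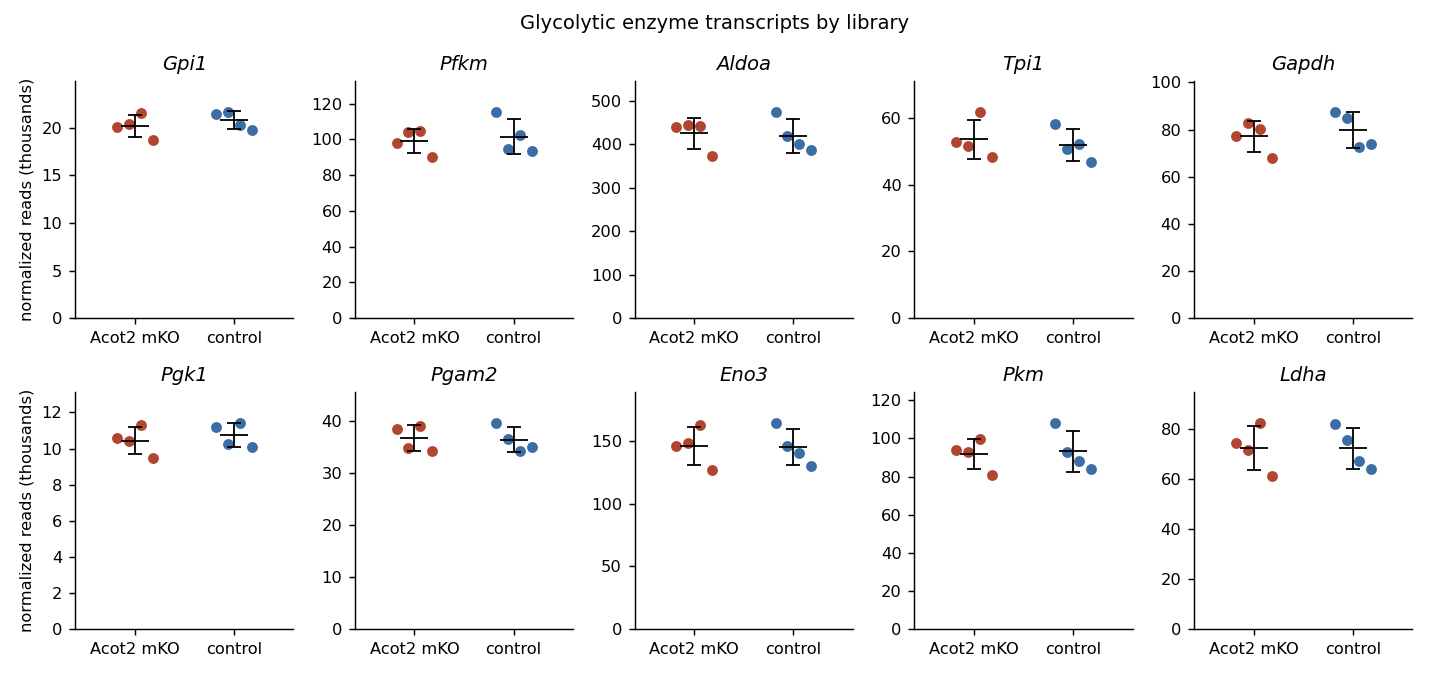
Normalized reads (axes from 0, each unit standing for 1000 normalized reads) of the 10 enzymes in each library, Acot2 mKO in red on the left and control in blue on the right, with the mean and SD of 4 libraries in black. The groups overlap in every panel, and 8 of the 10 enzymes have their lowest value in Acot2 mKO 4.

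The steps differed far more in level than the groups did. Per kilobase of merged exons, Aldoa stood at 145888 ± 11863 normalized reads in Acot2 mKO and 144092 ± 13334 in control muscle (SD, n = 4 each). Eno3 followed at 83953 ± 8570 and 83489 ± 8251, then Pgam2 at 43672 ± 2953 and 43277 ± 2845. Pfkm stood at 29739 ± 2010 and 30425 ± 2986, in Acot2 mKO and control muscle. The order from Aldoa through Eno3 and Pgam2 to Pfkm and Ldha was the same in all 8 libraries. Ldha, Tpi1, Gapdh and Pkm then lay close, at 21879, 19467, 18678 and 18349 in Acot2 mKO, against 21837, 18884, 19280 and 18637 in control muscle. Neighbours among these 4 had overlapping ranges, although Ldha exceeded Tpi1 in each of 8 libraries. Pgk1 (4653 ± 328 and 4787 ± 301) and Gpi1 (3126 ± 183 and 3222 ± 144) were the lowest in Acot2 mKO and control muscle, and the mean of Aldoa over 8 libraries was 45.7 times that of Gpi1.

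The middle of this order turned on the length used. Merged exons count 4.133 kb for Gapdh, of which 1.077 kb is coding, and intron-retaining transcripts are included. Per kilobase of coding sequence, Aldoa and Eno3 remained first and second, Gapdh came next, and Ldha, Tpi1, Pkm, Pgam2 and Pfkm followed with ranges that overlapped from each to the next. Gpi1 then stood above Pgk1, and Aldoa was 39.8 times Pgk1. Gapdh and Pgk1 also share much sequence with other genes. For this, 50-base windows were taken from the longest protein-coding transcript of each gene, not from its merged exons. Of these windows, 82.5% for Gapdh and 68.0% for Pgk1 occur, on either strand, in transcripts of another annotated gene. The share was 0% for Pfkm, Pgam2 and Eno3, 34.4% for Pkm, 25.3% for Gpi1, 16.6% for Ldha, 13.5% for Aldoa and 7.51% for Tpi1. No source used here states how reads with several matches were counted, so the levels of all enzymes with shared windows are uncertain. The share was largest for Gapdh and Pgk1, but Gpi1, the lowest by merged exons, is also among them. Exons of Gpi1, Pfkm, Aldoa, Tpi1, Gapdh and Pkm overlap those of another gene, and it is not stated whether the counting used strand.

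**Figure D3:**
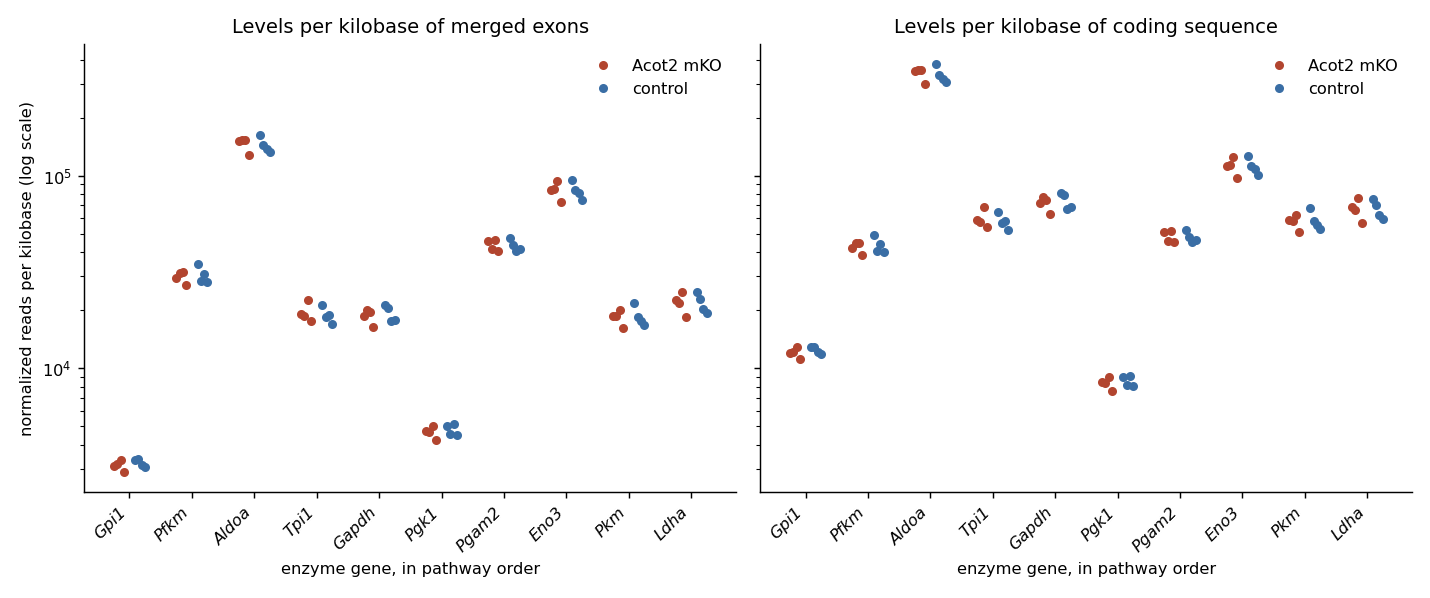
Normalized reads per kilobase (log scale) of the 10 enzymes in pathway order, each point 1 library, with Acot2 mKO in red on the left of each pair and control in blue. Aldoa and Eno3 are highest and Gpi1 and Pgk1 lowest by either length. Gapdh moves up when the same reads are divided by the coding length.

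As a share of all reads, the 10 enzymes took 2.93, 2.85, 3.11 and 2.63% in Acot2 mKO 1 to 4, against 3.23, 2.78, 2.86 and 2.55% in control 1 to 4. The groups overlapped. Within that sum, Aldoa held 41.1 ± 0.86% of the reads in Acot2 mKO and 40.7 ± 0.21% in control muscle, Eno3 14.1 ± 0.40% and 14.1 ± 0.17%, and Pgk1 1.01 ± 0.025% and 1.05 ± 0.086%. Over the 8 libraries the share of Aldoa ran from 40.0 to 41.8% and that of Eno3 from 13.8 to 14.7%, while that of Tpi1 ran from 4.86 to 5.58% and that of Pgk1 from 0.964 to 1.16%.

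The enzymes varied together from animal to animal. In Acot2 mKO 3 and in control 1, all 10 were above their own mean over 8 libraries, and in Acot2 mKO 4 and control 4 all 10 were below it. The mean deviation of the 10 was 0.016, 0.013, 0.12 and -0.17 on the log2 scale in Acot2 mKO 1 to 4, against 0.16, 0.011, -0.036 and -0.11 in control 1 to 4. Each group thus held both high and low animals. Acot2 mKO 4, the lowest, also had the highest sum of slow fibre markers and the lowest sum of 10 fast glycolytic fibre markers, 5.07e+06 normalized reads against 5.38e+06 to 6.46e+06 in the other 7 libraries. Acot2 mKO 3 had the second highest slow sum, 6979, and a fast sum of 5.58e+06, yet its enzymes were the second highest. Control 4 was low without these features, at 1890 normalized reads of slow and 5.97e+06 of fast markers. Acot2 mKO 4 and control 4 had the highest sums of 5 fibroblast markers, 69753 and 60709, against 40805 to 54235 elsewhere. Their sums of 5 endothelial markers, 6827 and 6492, were also the highest, against 4765 to 6265 elsewhere. The sum of 5 macrophage markers was 1852 and 1357 in them, and 1621 in control 1, where the enzymes were highest. The fibroblast sum of control 4 rested largely on Col1a1, at 27030 normalized reads. Its Col3a1 (21057), Dcn (9993) and Pdgfra (1614) lay within the range of the other libraries. Its Lum (1016) was second to Acot2 mKO 4. The part of fibre content and of other cell content in the enzymes' spread was not tested. The median within-group SD of the 10 was 0.13 on the log2 scale, beside 0.18 for all tested genes and 0.12 for the 280 tested genes with a mean of at least 10000 normalized reads.

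**Figure D4:**
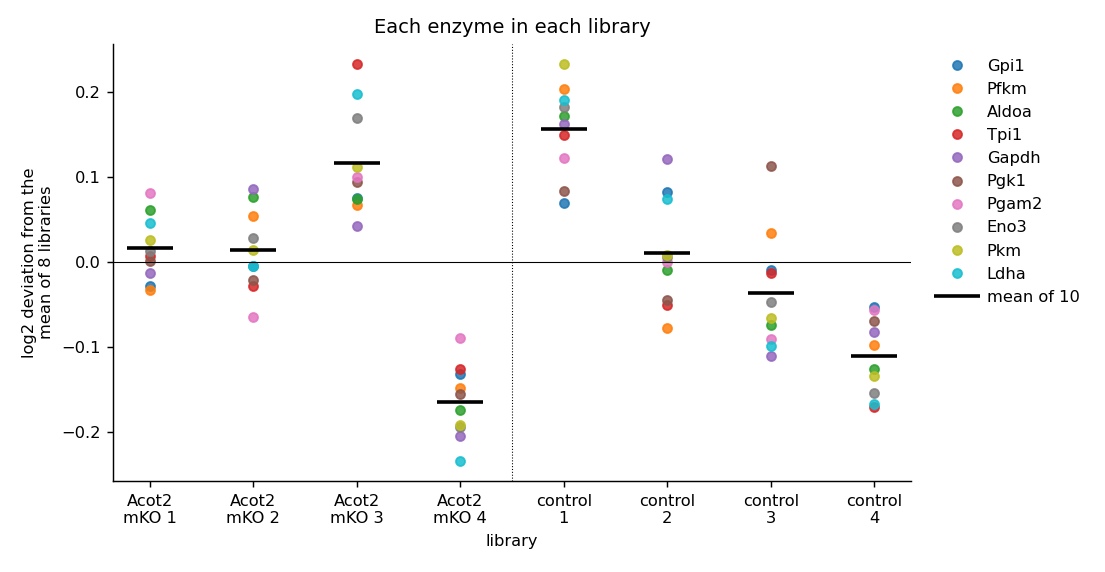
The log2 deviation of each enzyme from its own mean over the 8 libraries, by library, with Acot2 mKO left of the dotted line, control right of it, and the mean of the 10 as a black bar. All 10 enzymes lie above 0 in Acot2 mKO 3 and control 1 and below 0 in Acot2 mKO 4 and control 4.

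Over the 8 libraries, Pearson's r of each enzyme with the mean of the other 9 was 0.993 for Eno3, 0.983 for Pkm, 0.965 for Ldha and 0.933 for Aldoa, and between 0.720 for Pgk1 and 0.873 for Tpi1 for the other 6. The lowest r among the 45 pairs was 0.433 and the median 0.821. These points share their library, and with it depth, size factor and tissue piece, so the r values are descriptions. Among 9667 other genes, those closest to the mean of the 10 were Mtm1 (r = 0.974), a phosphoinositide phosphatase whose loss causes myotubular myopathy in humans, Tmem5 (0.971), Mgea5 (0.969), the enzyme that removes O-linked N-acetylglucosamine from proteins, Ddx3x (0.962), an RNA helicase, Serpinb6a (0.957), a protease inhibitor, and Actr3b (0.955), an actin-related protein. Mtm1 averaged 744 ± 62.7 normalized reads in Acot2 mKO and 746 ± 57.7 in control muscle.

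Most steps were held almost wholly by 1 gene. Per kilobase of merged exons, Pfkm made up 99.8% of the phosphofructokinase transcripts in Acot2 mKO and 99.8% in control muscle, Pgam2 99.9 and 99.9% of phosphoglycerate mutase, and Eno3 99.8 and 99.7% of enolase. The other isozymes also share 50-base windows with further genes, 72.2% for Eno1, 41.5% for Pgam1, 27.0% for Ldhb, 17.1% for Pfkp and 0.054% for Pfkl. How reads with several matches were counted is not stated, so the isozyme shares are uncertain too. Gapdhs, Pgk2, Eno4, Pklr and Ldhc, isozymes known from liver, testis and other tissues, were at 0 reads in all 8 libraries, and Aldoc and Ldhal6b did not pass the filter. The 6 isozymes that passed were Pfkl, Pfkp, Pgam1, Eno1, Eno2 and Ldhb, and 0 of them were called. Of these, 5 were below 0 and 1 above, with a median log2 difference of -0.21. Eno1, alpha-enolase, averaged 1039 ± 88.3 normalized reads in Acot2 mKO and 1207 ± 184 in control muscle (log2 difference -0.21 ± 0.10 SE; limma adjusted p = 0.9995). Pfkl, the liver phosphofructokinase, averaged 245 ± 14.4 in Acot2 mKO and 286 ± 49.9 in control muscle. Pfkl, Pfkp and Eno1 were each highest in control 2, the library with the highest adipocyte markers, and the part of fat tissue in these differences was not tested.

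Lactate dehydrogenase was the step with a second substantial subunit. Ldhb, the subunit of heart and oxidative fibres, had 571, 926, 3009 and 2723 normalized reads in Acot2 mKO 1 to 4, against 751, 289, 3776 and 2140 in control 1 to 4. It was low in Acot2 mKO 1 and 2 and in control 1 and 2 and high in the other 4, so that its highest value was 13.1-fold its lowest, and the difference between groups was 0.33 ± 0.74 (log2, SE). Shares of lactate dehydrogenase transcripts were taken per kilobase of merged exons. Ldha accounted for 98.4, 97.4, 92.9 and 91.4% in Acot2 mKO 1 to 4, against 98.1, 99.2, 89.4 and 93.4% in control 1 to 4. The means were 95.01 ± 3.39% in Acot2 mKO and 95.04 ± 4.51% in control muscle (SD, n = 4 each; exact two-sided permutation p = 1). The size of the Ldhb share turned on the length used. Merged exons count 3.31 kb for Ldha and 1.57 kb for Ldhb, of which 1.083 and 1.002 kb are coding. Over the 8 libraries the Ldhb share ran from 0.797 to 10.6% by merged exons. It ran from 0.410 to 5.73% by coding length and from 0.380 to 5.32% with reads not divided by length. The shares of Pfkm, Pgam2 and Eno3 gave exact permutation p-values of 0.371, 0.200 and 0.286, each 0.495 after adjustment over the 4 steps tested, where 70 relabellings allow no p below 0.0286.

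Myh2, the myosin of oxidative fast fibres, had 4408, 6512, 50678 and 51585 normalized reads in Acot2 mKO 1 to 4, against 7832, 797, 73690 and 50366 in control 1 to 4. The 4 libraries high in Ldhb were those high in Myh2, 2 from each group, control 2 was lowest in both and control 3 highest in both. Both measures come from the same libraries and no test was made of their relation. Ldha did not share this split: its highest values were in Acot2 mKO 3 and control 1, and its lowest in Acot2 mKO 4 and control 4.

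**Figure D5:**
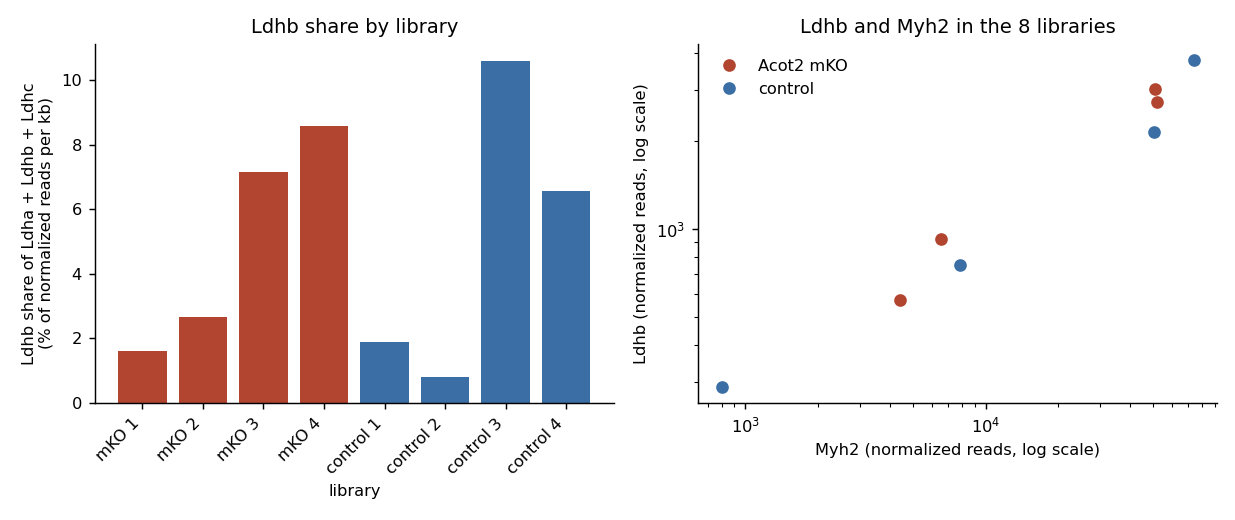
Left, the Ldhb share of lactate dehydrogenase transcripts (% of normalized reads per kilobase of merged exons, bars from 0) in each library, Acot2 mKO in red and then control in blue. By coding length the share ran only from 0.410 to 5.73%. Right, Ldhb against Myh2 in normalized reads (log scales), 1 point per library; 4 libraries, 2 of each group, are high in both.

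Genes around the pathway gave no calls either. Of 20 genes for entry of hexose phosphates and control of the pathway, 18 were tested, 0 were called, and 7 were above and 11 below 0, with a median log2 difference of -0.016. The smallest p in that list belonged to Hk3, a hexokinase of blood cells, at 10.5 ± 3.01 normalized reads in Acot2 mKO and 18.01 ± 3.91 in control muscle (limma adjusted p = 0.9995). Pgp, a phosphatase of glycolytic side products, averaged 743 ± 94.8 and 654 ± 97.1 in Acot2 mKO and control muscle, Galm, aldose 1-epimerase, 53.1 ± 7.40 and 65.3 ± 11.3, and Pgm1, a phosphoglucomutase, 46.0 ± 16.1 and 54.7 ± 6.55. Another phosphoglucomutase gene of the list, Pgm2, was far higher, at 21454 ± 2154 in Acot2 mKO and 21896 ± 1939 in control muscle. Of 23 genes for side branches and exits, 0 were called, and 13 were above and 10 below 0, with a median of 0.0058. The 4 with the smallest p were Pgd, G6pdx and Tkt of the pentose phosphate pathway and Phgdh of serine synthesis. Tkt, for example, averaged 332 ± 66.9 in Acot2 mKO and 642 ± 549 in control muscle, and all 4 were highest in control 2, beside its high adipocyte markers. Of 17 factors known to act on glycolytic or fast muscle genes, 0 were called, and 6 were above and 11 below 0, with a median of -0.025. Epas1, a hypoxia-inducible factor, averaged 3430 ± 474 and 3772 ± 374 in Acot2 mKO and control muscle, and Mef2c, a muscle MADS-box factor, 29322 ± 1869 and 27587 ± 1215. Mlxip, a glucose-sensing factor, averaged 2899 ± 371 and 3233 ± 541, and Myc 63.3 ± 23.2 and 74.7 ± 7.62. Across all tested genes, 7050 were above and 6588 below 0.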

How the data were processed

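Total RNA of white quadriceps was made into stranded libraries, per the labels' protocols. The submitters' processing notes name cutadapt, FastQC, STAR, HTSeq, DESeq2 and GRCm38, with no settings. The deposited values, by the authors, are log2(x + 1). They show x to be a read count divided by 1 factor per library: all values under 1000 reads lay within 0.1 of a whole multiple of 1 read, which was worth 0.708 to 1.22 normalized reads. Replicates differed beyond sampling noise (chi-square per gene 26.0 to 79.2). Mitochondrial genes took 9.70 to 13.0% of reads.

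Genes that reached 10 normalized reads in 4 or more libraries were tested with limma 3.58.1 in R 4.3.3 (trend on, Benjamini-Hochberg over 13638 genes, threshold 0.05) on the deposited log2 values. The isozyme shares were tested by exact permutation. Lengths and positions are from GENCODE M21, promoters from RefSeq. The code was tested on simulated data. The enzymes and gene lists were chosen with earlier results of these data known. One listed isozyme is not reported here. Named genes were the enzymes, tested isozymes, up to 4 genes of smallest p per other list, Acot2, and 6 genes most like the enzymes' mean. Pgm2 was added beside Pgm1 after its level was seen. Alternatives covered pseudocount, filter, scaling, library weights, voom, a replicate block, length and left-out libraries.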

Additional observations from a re-analysis of the deposited data

Results flagged for a closer look

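In 1 of 42 groups of 4 values looked at, a library stood far from the others. Aldoa in Acot2 mKO 4 had 372969 normalized reads, and the nearest Acot2 mKO library had 439072, a gap that was 0.933 of the group's range and past Dixon's 95% critical value for 4 samples. Chance gives such a gap in about 1 in 20 groups.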

How the results depend on the processing

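In all 19 alternative settings 2 genes and 0 of the 10 enzymes were called. The 190 recomputed log2 differences of the enzymes lay between -0.089 and 0.125, with no adjusted limma p below 0.920, and 31 had the opposite sign to the reported value. Changes of pseudocount, filter, scaling, weights or test turned no sign. Leaving out 1 library at a time gave ranges of -0.077 to -0.0084 for Gpi1, -0.068 to 0.032 for Pfkm, -0.020 to 0.080 for Aldoa, -0.028 to 0.099 for Tpi1, -0.089 to 0.016 for Gapdh, -0.080 to 0.0034 for Pgk1, -0.018 to 0.056 for Pgam2, -0.048 to 0.074 for Eno3, -0.068 to 0.054 for Pkm and -0.064 to 0.080 for Ldha. The difference in the Ldha share ranged from -1.90 to 1.36 percentage points, and it was 0.0053 with reads not divided by length. In settings added after seeing the data, leaving out control 2 and control 3 (high in adipocyte genes) gave -0.014 for Aldoa, -0.026 for Pgam2, -0.010 for Eno3 and -0.0105 for Ldha, and leaving out Acot2 mKO 3 and Acot2 mKO 4 (high in slow fibre genes) gave 0.014 for Gapdh and 0.0097 for Pkm. The cause of these turns was not tested, and each value of an enzyme that turned was smaller than its standard error.

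With a replicate block of adjacent animal numbers, 2 genes and 0 enzymes were called, and 513 genes, against 397, had an unadjusted p under 0.05. The deviations of the 4 pairs correlated at -0.081, 0.151, 0.188 and -0.083, so the numbers were not shown to pair the animals. With 4 libraries a group, the intervals leave room for changes of up to 1.25-fold up and 0.820-fold down. Both bounds are those of Aldoa, and the narrowest interval, of Gpi1, ran from 0.877-fold to 1.07-fold of control.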
